A study of Mus musculus with 8 samples.

Results

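The genes described here are the G protein-coupled receptors that carry a Gpr number as their symbol, together with Gprc5a to Gprc5d. A gene was taken when a probe set of the array carried exactly 1 symbol of that form in the platform annotation, and where a gene had several such probe sets, the one with the highest mean over the 8 arrays was kept. This gave 69 receptors of 19938 named genes, read by 70 probe sets, Gprc5c being the receptor with 2. The cells were mouse bone marrow-derived macrophages, which are grown from marrow progenitors, and their total RNA was measured on 8 whole-transcript expression arrays. The 4 groups had 2 arrays each: untreated cells, cells given IFN gamma/LPS, cells given IL4/IL13, and cells that received LPS/IL4/IL13, the treatments lasting 6 h. IFN gamma with the bacterial product LPS is the usual stimulus for inflammatory activation of macrophages, IL4 with IL13 the usual stimulus for alternative activation, and the last group received LPS together with the alternative stimulus. The effect of LPS added to IL4/IL13 can be read from these groups. Without a group on LPS alone, or on IFN gamma alone, the parts of IFN gamma and LPS in their mixture cannot be told apart. The labels give no strain and do not state whether a group's arrays stem from different animals or cultures. The p-values therefore reflect array-to-array spread that may be technical.

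Receptors of this kind cross a membrane in 7 helices and pass the binding of a ligand to a heterotrimeric G protein, whose alpha and beta-gamma subunits then act on adenylyl cyclase, phospholipase C or ion channels. Kinases of the GRK family phosphorylate the active receptor, and arrestins then bind it and end the signal. A Gpr number was given to receptors found by sequence before a ligand was known, so the set joins receptors for protons, fatty acids, oxysterols and lysophospholipids with orphans and with proteins of intracellular membranes. In macrophages such receptors are known as sensors of tissue acidity and of lipids released at sites of inflammation.

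The deposited values were on a log2 scale between 1.46 and 13.71, and the median of an array lay between 6.12 and 6.2. Arrays of a group correlated across genes at r of 0.9939 to 0.9974. Among 9 measured macrophage markers all 9 had a group mean of at least 6, and their mean level was 11.6 to 12 on every array. Single macrophage markers moved all the same. With IFN gamma/LPS 3 rose, Fcgr1 by 1.44 on the log2 scale, and 5 fell, Csf1r by 1.085. Of all named genes 23.6% rose and 28.4% fell there. With IL4/IL13 0 rose and 4 fell, Mertk by 1.51 and Cd14 by 1.42, against 7.83% and 12.3%. The mean level of 7 T and NK cell markers was 4.98 to 5.34, that of 5 B cell markers 5.31 to 5.70, and that of 5 mast cell markers 5.02 to 5.25. A group mean of 6 was reached by the T cell markers Cd3e and Cd8a and the B cell markers Cd79b and Cd22, and by no mast cell marker. Cd79b had a mean of 8.065 in untreated cells and fell by 1.12 with IFN gamma/LPS on the log2 scale. Cd22 fell by 0.415 with LPS/IL4/IL13. Over 8 neutrophil markers the mean level was 6.23 to 6.4 and 6 of them reached a group mean of 6, Ngp falling by 0.62 with IFN gamma/LPS and by 0.90 with LPS/IL4/IL13 and S100a8 rising by 1.16 with LPS/IL4/IL13 on the log2 scale. Over 6 fibroblast markers it was 6.18 to 6.65 and 4 reached 6, Dcn rising by 1.36 with IFN gamma/LPS and by 1.75 with LPS/IL4/IL13. Markers of dendritic cells moved with treatment. The mean over 6 of them was 5.44 to 5.5 in untreated cells and 6.29 to 6.30 with IFN gamma/LPS. With IFN gamma/LPS 4 of the 6 rose, among them Xcr1, against 23.6% of all named genes. Fewer cells of a type and less RNA per cell cannot be told apart in these bulk samples, and the part of other cell types in the results below was not tested.

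A receptor was treated as dim when its mean was under 6 in every group, a level just below the median gene mean of 6.34. By this rule 30 receptors were dim and 39 were not, which is 56.5% of the set against 62.8% of all named genes. Gpr21, with a highest group mean of 5.995, lay just under the limit, and Gpr83, with 6.12, just above it. Levels of different receptors are read by different probes and are not set against each other here. A change was called when limma's adjusted p over all 19938 genes was under 0.05. In the 6 comparisons between groups, 21 of the 69 receptors (30.4%) were called with a change of at least 2-fold at least once, against 22.5% of all named genes. Of these 21, 20 were not dim and 1, Gpr82, was.

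**Figure D1:**
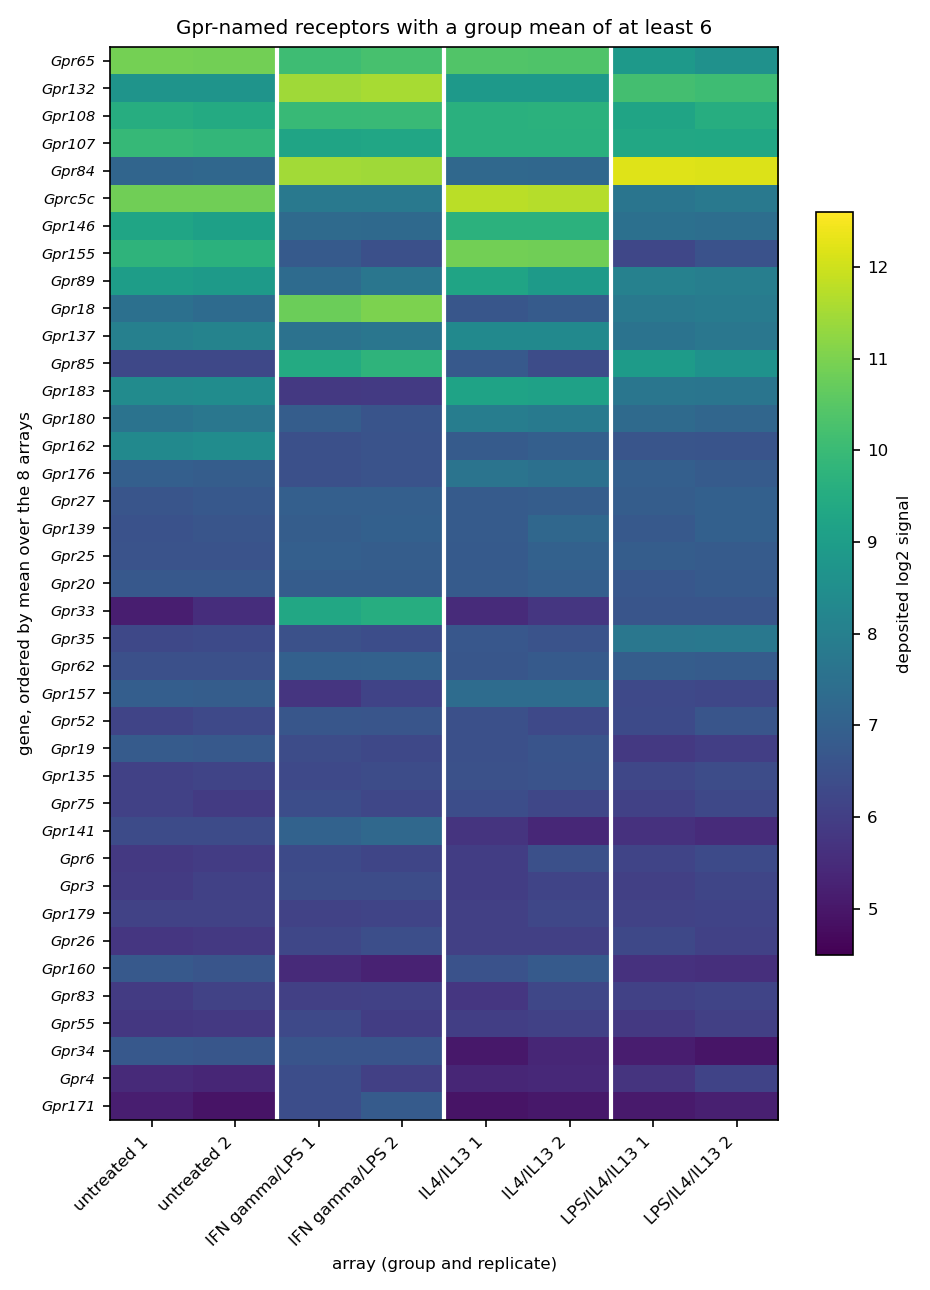
Deposited log2 level of the 39 receptors that were not dim on each of the 8 arrays, with arrays as columns by group and receptors as rows ordered by their mean; the colour gives the level. The columns of a group look alike, and the blocks with and without LPS differ for Gpr84, Gpr132, Gpr85, Gprc5c and Gpr155.

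Among the receptors for lipids, metabolites and protons, Gpr84 changed most against untreated cells, and it rose wherever LPS was given. Gpr84 is a receptor for medium-chain fatty acids that is known from myeloid cells. Its log2 level was 7.15 and 7.22 in untreated cells, 11.47 and 11.45 with IFN gamma/LPS, 7.25 and 7.22 with IL4/IL13, and 12.20 and 12.16 with LPS/IL4/IL13. The arrays with LPS stood far above those without, and the 2 groups with LPS did not overlap either. With IFN gamma/LPS the level was 19.4-fold higher than in untreated cells (log2 difference 4.28 ± 0.08 SE, n = 2 and 2, adjusted p = 1.87e-12 by limma), and with LPS/IL4/IL13 it was 31.9-fold higher (5.0 ± 0.08, adjusted p = 6.51e-13). LPS/IL4/IL13 exceeded IFN gamma/LPS by 1.65-fold (log2 difference 0.72, adjusted p = 2.94e-05 by limma). IL4/IL13 alone gave a log2 difference from untreated of 0.05 with a 95% interval of -0.12 to 0.22.

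The proton-sensing receptors went different ways. Gpr65 and Gpr132 belong with Gpr4 to a small family that is activated by a fall in extracellular pH, Gpr65 mainly through cyclic AMP. Gpr132 was at 8.69 and 8.70 in untreated cells, 11.46 and 11.55 with IFN gamma/LPS, 8.87 and 8.86 with IL4/IL13, and 10.18 and 10.10 with LPS/IL4/IL13 on the log2 scale. The arrays with LPS lay above all others, and those with IFN gamma/LPS lay above those with LPS/IL4/IL13. The rise over untreated was 7.01-fold with IFN gamma/LPS (log2 difference 2.81 ± 0.08 SE, adjusted p = 3.26e-11 by limma) and 2.72-fold with LPS/IL4/IL13 (1.45 ± 0.08). Gpr65 was at 10.90 and 10.86 in untreated cells, 10.10 and 10.23 with IFN gamma/LPS, 10.41 and 10.36 with IL4/IL13, and 8.86 and 8.59 with LPS/IL4/IL13. It fell in all 3 treated groups, and the arrays with LPS/IL4/IL13 lay below every other array. The fall against untreated was 4.45-fold there (log2 difference -2.15 ± 0.10 SE, adjusted p = 2.35e-09 by limma), against log2 differences of -0.71 with IFN gamma/LPS and -0.49 with IL4/IL13. LPS/IL4/IL13 was also lower than IL4/IL13 by 1.66 and than IFN gamma/LPS by 1.44 on the log2 scale, both called. Gpr4 rose less, by 0.81 ± 0.16 with IFN gamma/LPS and by 0.49 ± 0.16 with LPS/IL4/IL13 on the log2 scale. Its signal was low, with a mean of 5.42 in untreated cells. It passed the dim limit only with IFN gamma/LPS, at 6.42 and 6.04, and was at 5.71 and 6.12 with LPS/IL4/IL13.

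Gpr18 and Gpr183 moved in opposite directions. The RefSeq gene order of assembly GRCm38.p6 places them next to each other, both inside the span of Ubac2. Gpr183, also called EBI2, steers the migration of immune cells by the oxysterol 7-alpha,25-dihydroxycholesterol, and N-arachidonoyl glycine has been proposed as a ligand of Gpr18. Gpr18 was at 7.50 and 7.34 in untreated cells, 10.79 and 11.00 with IFN gamma/LPS, 6.66 and 6.82 with IL4/IL13, and 7.76 and 7.86 with LPS/IL4/IL13 on the log2 scale. No groups overlapped, and the order from low to high was IL4/IL13, untreated, LPS/IL4/IL13 and IFN gamma/LPS, with every neighbour in it called different. Gpr18 was 11.1-fold higher with IFN gamma/LPS than in untreated cells (log2 difference 3.48 ± 0.11 SE, adjusted p = 1.12e-10 by limma). With LPS/IL4/IL13 it was 1.31-fold higher (0.39 ± 0.11, adjusted p = 0.0117), which is 8.49-fold below IFN gamma/LPS. Gpr183 was at 8.42 and 8.44 in untreated cells, 5.85 and 5.87 with IFN gamma/LPS, 9.20 and 9.12 with IL4/IL13, and 7.67 and 7.64 with LPS/IL4/IL13. Again no groups overlapped, and the order, from low to high IFN gamma/LPS, LPS/IL4/IL13, untreated and IL4/IL13, was that of Gpr18 reversed. The fall of Gpr183 with IFN gamma/LPS was 5.94-fold (log2 difference -2.57 ± 0.09 SE, adjusted p = 2.96e-10 by limma). With LPS/IL4/IL13 it fell by 0.78 on the log2 scale and was 3.47-fold above IFN gamma/LPS (adjusted p = 6.58e-08 by limma).

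The enzymes around the ligand of Gpr183 were measured on the same arrays. Ch25h, which makes 25-hydroxycholesterol, rose by 5.55 ± 0.09 (SE) with IFN gamma/LPS, by 1.55 with IL4/IL13 and by 5.69 with LPS/IL4/IL13 on the log2 scale, all 3 called. Cyp7b1, which adds the 7-alpha hydroxyl group, differed from untreated by 0.14, 0.23 and 0.17, none of them called, from an untreated mean of 4.35. Hsd3b7, which turns the ligand into an inactive product, fell by 1.12 with IFN gamma/LPS, by 0.34 with IL4/IL13 and by 0.95 with LPS/IL4/IL13. Ch25h did not pass the test between the 2 groups with LPS (log2 difference 0.14, adjusted p = 0.392 by limma), whereas Gpr183 differed between them by 1.79.

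Gpr34 and its neighbour Gpr82 were lower in both groups that received IL4/IL13. Gpr34 is a receptor for lysophosphatidylserine known from microglia, Gpr82 is an orphan, and both genes lie inside the span of Cask in the same gene order. Gpr34 was at 6.72 and 6.67 in untreated cells, 6.6 and 6.59 with IFN gamma/LPS, 5.03 and 5.36 with IL4/IL13, and 5.15 and 4.97 with LPS/IL4/IL13 on the log2 scale. The arrays with IL4/IL13, with or without LPS, lay below all the others. The fall against untreated was 2.83-fold with IL4/IL13 (log2 difference -1.50 ± 0.13 SE, adjusted p = 5.24e-06 by limma) and 3.11-fold with LPS/IL4/IL13 (-1.64 ± 0.13, adjusted p = 4.05e-07). IFN gamma/LPS differed from untreated by -0.10 (95% interval -0.38 to 0.18), and the 2 groups with IL4/IL13 differed from each other by -0.14 (-0.41 to 0.14). The dim Gpr82 was at 5.46 and 5.28 in untreated cells, 5.52 and 5.43 with IFN gamma/LPS, 4.21 and 4.10 with IL4/IL13, and 4.68 and 4.64 with LPS/IL4/IL13. It fell 2.32-fold with IL4/IL13 (log2 difference -1.22 ± 0.12 SE, adjusted p = 1.62e-05 by limma) and by 0.71 with LPS/IL4/IL13, and the latter was 0.51 above IL4/IL13, all called. The enzymes of the Gpr34 ligand moved too: Abhd12, which degrades lysophosphatidylserine, fell by 1.86 with IFN gamma/LPS, by 0.50 with IL4/IL13 and by 1.14 with LPS/IL4/IL13. Abhd16a, which makes it, rose by 1.86, 0.41 and 1.14 in the same order, and Pla1a, a phospholipase that also makes it, rose by 1.53 with IFN gamma/LPS and by 0.69 with LPS/IL4/IL13.

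**Figure D2:**
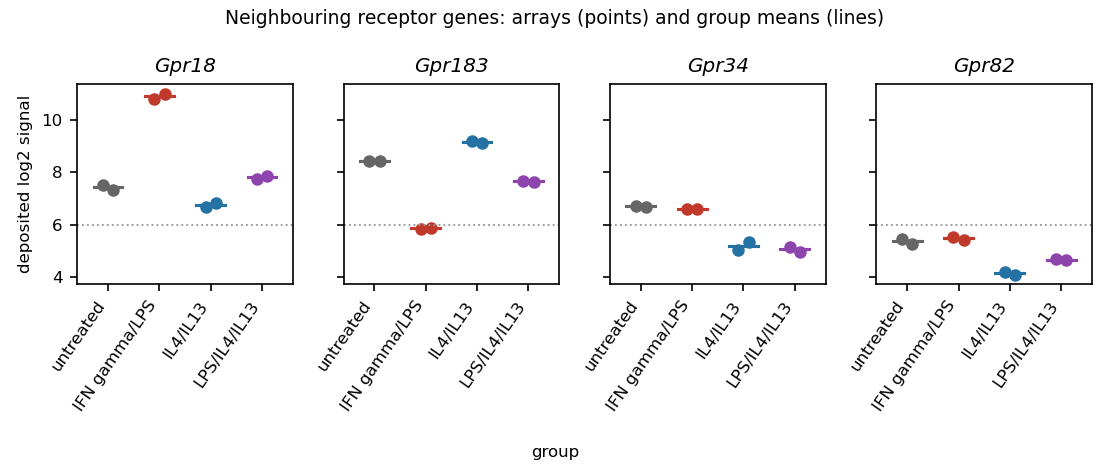
Deposited log2 level of Gpr18, Gpr183, Gpr34 and Gpr82 on every array (points) with the group means (short lines), by treatment group; the dotted line marks the dim limit of 6. Gpr18 is highest and Gpr183 lowest with IFN gamma/LPS, while Gpr34 and Gpr82 are both lower in the 2 groups with IL4/IL13.

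Gpr35 rose mainly with LPS/IL4/IL13. Kynurenic acid has been proposed as its ligand. Its log2 level was 6.27 and 6.33 in untreated cells, 6.52 and 6.42 with IFN gamma/LPS, 6.69 and 6.56 with IL4/IL13, and 7.70 and 7.73 with LPS/IL4/IL13. Only the arrays with LPS/IL4/IL13 stood clearly apart, the others lying close together. The rise was 2.67-fold (log2 difference 1.42 ± 0.10 SE, adjusted p = 2.03e-07 by limma) with LPS/IL4/IL13, against log2 differences of 0.33 with IL4/IL13 (adjusted p = 0.0432) and 0.17 with IFN gamma/LPS (adjusted p = 0.181). Ido1, the first enzyme of the kynurenine pathway, rose by 3.0 ± 0.16 (SE) with IFN gamma/LPS and by 1.11 with LPS/IL4/IL13 on the log2 scale, the opposite order of these 2 groups. Gpr55, a receptor for lysophosphatidylinositol, was called in no comparison, its largest log2 difference being 0.32 with IFN gamma/LPS (adjusted p = 0.0558 by limma).

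The receptors grouped as leukocyte receptors were 8, of which 5 were not dim. Of those 5, 4 changed at least 2-fold in some comparison, as did the dim Gpr82. The share over all named genes, dim ones included, was 22.5%. Gpr33 and Gpr171 passed the dim limit only in groups where they rose, so the count among those 5 cannot be set against that share. Gpr33 is an orphan related in sequence to chemoattractant receptors. It was at 5.18 and 5.57 in untreated cells, 9.36 and 9.56 with IFN gamma/LPS, 5.5 and 5.78 with IL4/IL13, and 6.64 and 6.65 with LPS/IL4/IL13 on the log2 scale. The arrays with IFN gamma/LPS were far above the rest, and those with LPS/IL4/IL13 lay between. The rise was 17.0-fold with IFN gamma/LPS (log2 difference 4.08 ± 0.14 SE, adjusted p = 2.78e-10 by limma) and 2.41-fold with LPS/IL4/IL13 (1.27 ± 0.14). The untreated and IL4/IL13 means lay below the dim limit.

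Gpr171, a receptor known from lymphocytes, rose with IFN gamma/LPS and lay above the other 2 treated groups, both differences being called, while neither of these was called against untreated. It was at 5.17 and 4.94 in untreated cells, 6.42 and 6.84 with IFN gamma/LPS, 4.93 and 5.01 with IL4/IL13, and 5.08 and 5.20 with LPS/IL4/IL13. The rise was 2.98-fold (log2 difference 1.57 ± 0.15 SE, adjusted p = 1.65e-06 by limma), the difference in LPS/IL4/IL13 being 0.09 with a 95% interval of -0.23 to 0.41. Of the 7 measured T and NK cell markers 2, Ncr1 and Nkg7, rose with IFN gamma/LPS, against 23.6% of all named genes. Both also rose with IL4/IL13, by 0.445 and 0.385 on the log2 scale, where Gpr171 was not called against untreated. The mean level of the list was at most 5.34 on every array. The part of T and NK cells in the result for Gpr171 was not tested.

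Gpr141 and Gpr160 are orphans. Gpr141 was at 6.36 and 6.36 in untreated cells, 7.06 and 7.24 with IFN gamma/LPS, 5.73 and 5.39 with IL4/IL13, and 5.64 and 5.5 with LPS/IL4/IL13. It thus rose with IFN gamma/LPS, by 0.79 ± 0.13 (SE), and fell with IL4/IL13, by 0.80, and with LPS/IL4/IL13, by 0.79, on the log2 scale. The 2 groups with IL4/IL13 overlapped and differed by 0.01 (95% interval -0.27 to 0.29). Gpr160 was at 6.75 and 6.62 in untreated cells, 5.47 and 5.29 with IFN gamma/LPS, 6.54 and 6.79 with IL4/IL13, and 5.65 and 5.59 with LPS/IL4/IL13. Both groups with LPS were lower than both without, by 1.30 ± 0.12 and 1.06 ± 0.12 against untreated on the log2 scale.

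Gprc5c, an orphan of class C in a family first found through induction by retinoic acid, fell with LPS and rose with IL4/IL13. It was at 10.83 and 10.84 in untreated cells, 7.79 and 7.79 with IFN gamma/LPS, 11.75 and 11.71 with IL4/IL13, and 7.64 and 7.77 with LPS/IL4/IL13 on the log2 scale. The groups with LPS lay close together below all others, and IL4/IL13 lay above untreated. The fall was 8.25-fold with IFN gamma/LPS (log2 difference -3.04 ± 0.08 SE, adjusted p = 2.46e-11 by limma) and 8.75-fold with LPS/IL4/IL13 (-3.13 ± 0.08), and the rise with IL4/IL13 was 1.86-fold (0.90 ± 0.08). Its second probe set read 9.99 and 9.93 in untreated cells, 7.52 and 7.64 with IFN gamma/LPS, 10.69 and 10.71 with IL4/IL13, and 7.24 and 7.42 with LPS/IL4/IL13, moving the same way. LPS/IL4/IL13 and IFN gamma/LPS differed by -0.09 (95% interval -0.26 to 0.09) in the first probe set.

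Gpr155 is a cholesterol sensor of the lysosomal membrane. It was at 9.78 and 9.67 in untreated cells, 6.78 and 6.49 with IFN gamma/LPS, 10.87 and 10.83 with IL4/IL13, and 6.21 and 6.53 with LPS/IL4/IL13 on the log2 scale. The 2 groups with LPS overlapped far below the rest, and IL4/IL13 was highest. The fall was 8.52-fold with IFN gamma/LPS (log2 difference -3.09 ± 0.13 SE, adjusted p = 9.80e-10 by limma) and 10.2-fold with LPS/IL4/IL13 (-3.35 ± 0.13), and the rise with IL4/IL13 was 2.18-fold (1.12 ± 0.13, adjusted p = 5.17e-05). LPS/IL4/IL13 and IFN gamma/LPS differed by -0.27 (95% interval -0.54 to 0.01, adjusted p = 0.198 by limma).

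The group of proteins of intracellular membranes held 7 members, 6 of them not dim, and of these 5 fell and 1 rose with IFN gamma/LPS, while 5 fell and 0 rose with LPS/IL4/IL13. Among all genes that were not dim, 43.6% fell and 27% rose with IFN gamma/LPS, and 38.8% fell and 24.9% rose with LPS/IL4/IL13. Besides Gpr155, the falling ones were Gpr89, the Golgi pH regulator, Gpr180, Gpr107 and Gpr137. Gpr89 was at 9.00 and 8.91 in untreated cells, 7.34 and 7.68 with IFN gamma/LPS, 9.23 and 8.90 with IL4/IL13, and 8.06 and 7.98 with LPS/IL4/IL13. The fall of Gpr89 was 2.72-fold with IFN gamma/LPS (log2 difference -1.45 ± 0.13 SE) and 1.91-fold with LPS/IL4/IL13 (-0.94 ± 0.13), and the level in the latter was 0.51 above the former on the log2 scale. Gpr180 was at 7.59 and 7.72, 6.90 and 6.59, 7.92 and 7.85, and 7.29 and 7.16 in the order untreated, IFN gamma/LPS, then IL4/IL13, then LPS/IL4/IL13. It fell by 0.91 ± 0.12 (SE) with IFN gamma/LPS and by 0.43 ± 0.12 with LPS/IL4/IL13 on the log2 scale. Gpr107 and Gpr137, proteins of the Golgi and of the lysosome, fell by 0.63 and 0.46 with IFN gamma/LPS and by 0.54 and 0.42 with LPS/IL4/IL13. Gpr108, a relative of Gpr107 in the Golgi, went the other way and rose by 0.47 ± 0.10 (SE) with IFN gamma/LPS, its difference with LPS/IL4/IL13 being -0.12 and not called.

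Among the other orphans, Gpr85, an orphan conserved across vertebrates and known from brain, rose with LPS. It was at 6.25 and 6.25 in untreated cells, 9.46 and 9.78 with IFN gamma/LPS, 6.77 and 6.38 with IL4/IL13, and 8.93 and 8.63 with LPS/IL4/IL13 on the log2 scale. The groups with LPS did not overlap with those without, nor with each other. The rise was 10.3-fold with IFN gamma/LPS (log2 difference 3.37 ± 0.15 SE, adjusted p = 2.28e-09 by limma) and 5.78-fold with LPS/IL4/IL13 (2.53 ± 0.15).

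Gpr146, an orphan known from cholesterol metabolism of the liver, fell with LPS. It was at 9.27 and 9.09 in untreated cells, 7.30 and 7.26 with IFN gamma/LPS, 9.71 and 9.71 with IL4/IL13, and 7.48 and 7.42 with LPS/IL4/IL13. The fall was 3.73-fold with IFN gamma/LPS (log2 difference -1.90 ± 0.09 SE) and 3.32-fold with LPS/IL4/IL13 (-1.73 ± 0.09), and IL4/IL13 was 0.53 above untreated. Gpr162, an orphan known from brain, was lower in every treated group: it was at 8.36 and 8.44 in untreated cells, 6.47 and 6.57 with IFN gamma/LPS, 6.81 and 6.95 with IL4/IL13, and 6.64 and 6.6 with LPS/IL4/IL13. The untreated arrays stood alone at the top, with falls of 1.88, 1.52 and 1.78 ± 0.10 (SE) on the log2 scale. In this it differed from Gprc5c, Gpr155 and Gpr146, which rose with IL4/IL13.

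Gpr157 and Gpr176 had their highest mean with IL4/IL13 and their lowest with IFN gamma/LPS. For Gpr157, IFN gamma/LPS and LPS/IL4/IL13 were not called different. Gpr157, a receptor studied in neural progenitors, was at 6.92 and 6.90 in untreated cells, 5.76 and 6.14 with IFN gamma/LPS, 7.35 and 7.36 with IL4/IL13, and 6.29 and 6.24 with LPS/IL4/IL13. Gpr176, an orphan of the central circadian clock, was at 6.95 and 6.90, 6.47 and 6.57, 7.61 and 7.49, and 6.95 and 6.81 in the same order. IFN gamma/LPS lay below IL4/IL13 by 1.41 ± 0.12 (SE) for Gpr157 and by 1.03 ± 0.10 for Gpr176 on the log2 scale, both called, while each differed from untreated by under 1. Gpr19, an orphan, changed less than 2-fold and was lowest with LPS/IL4/IL13, at 5.84 and 6.01 against 6.81 and 6.77 in untreated cells, a fall of 0.86 ± 0.11 (SE). The other 14 receptors that were not dim had group means between 5.82 and 7.03, close to the dim limit, and their largest log2 difference was 0.51. Of these 14, 7 were called higher with IFN gamma/LPS, 2 with IL4/IL13 and 2 with LPS/IL4/IL13. Among all genes that were not dim the shares were 27%, 10.5% and 24.9%. Called lower were 0 of the 14, against 43.6%, 19.1% and 38.8% of those genes. The 14 were left after the receptors with a 2-fold change and Gpr107, Gpr108, Gpr137, Gpr19 and Gpr4 were set apart. Gpr107, Gpr137 and Gpr19 were called lower with IFN gamma/LPS, so the 0 and the 0.51 depend on that choice. No such removal was made among all genes. Neither these counts nor the median below can therefore be set against the values of all genes. Gpr75, Gpr6, Gpr3, Gpr26 and Gpr55 had untreated means under 6. They passed the dim limit only through treated groups, which tilts these counts toward higher. Among all dim genes 17.8% were higher and 2.67% lower with IFN gamma/LPS. The median log2 difference of the 14 was 0.34 with IFN gamma/LPS, where the median over all named genes was 0.10. Counting only the comparisons against untreated, 9 of the 14 were called higher at least once as deposited and 10 after quantile normalization. Gpr20, Gpr6, Gpr179, Gpr83 and Gpr55 were the 5 receptors above the dim limit that were called in no comparison.

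Of the 30 dim receptors, 25 were called in no comparison. With IFN gamma/LPS 2 of the 30 were higher and 1 lower, against 17.8% and 2.67% of all dim genes, with IL4/IL13 0 were higher and 1 lower, against 3.29% and 0.918%, and with LPS/IL4/IL13 1 was higher and 1 lower, against 12.5% and 2.66%. Apart from Gpr82, described above, the called ones were Gpr21, Gpr45, Gpr165 and Gpr153, and the largest log2 difference among the 29 dim receptors without Gpr82 was 0.47. Their group means ran from 3.96 to 5.995. Whether low signal hid falls in them was not tested. At such levels Gpr82 fell from a mean of 5.37 in untreated cells to 4.155 with IL4/IL13. In the plot of level and range, the receptors with a highest group mean under 6 had narrow ranges, except Gpr82 with a range of 1.32.

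**Figure D3:**
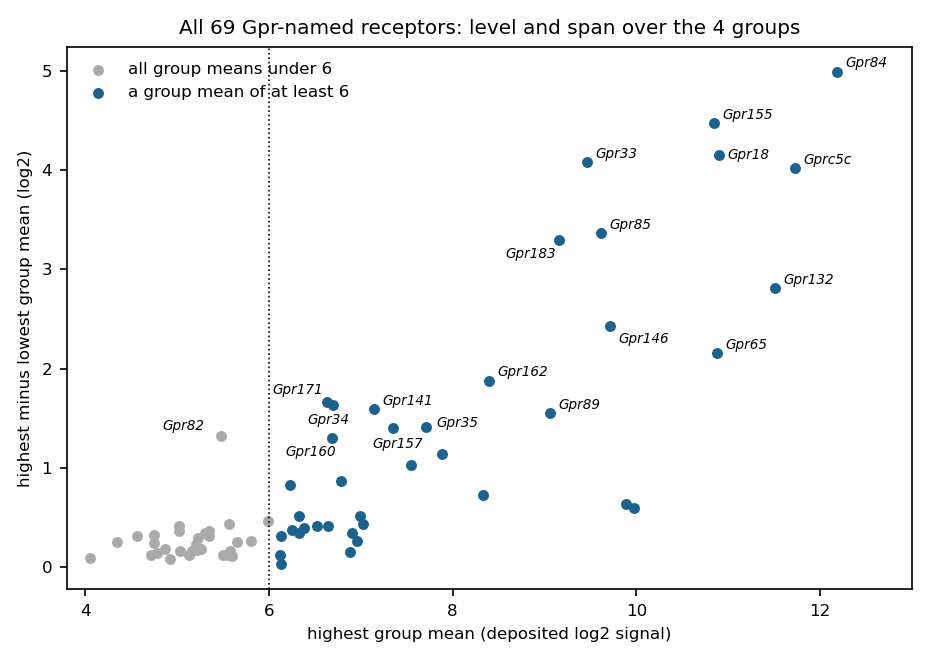
Range of the 4 group means of each receptor (highest minus lowest, log2) against its highest group mean (log2); the dotted line marks the dim limit of 6, with dim receptors in grey. Gpr84 has the widest range, and the dim receptors other than Gpr82 lie at or below 0.47.

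The first bases around the gene starts are shown for the receptors that rose at least 2-fold in both groups with LPS and for the neighbours Gpr18 and Gpr183. They are RefSeq windows of assembly GRCm38.p6, 250 bases before to 50 after each start, all on the minus strand: chr14:121915839-121916138 for Gpr18, chr14:121965144-121965443 for Gpr183, chr12:52028014-52028313 for Gpr33, chr12:112860867-112861166 for Gpr132, chr6:13839893-13840192 for Gpr85 and chr15:103310389-103310688 for Gpr84. Capitals mark matches to 4 motifs searched on both strands: the kappaB consensus, bound by NF-kappaB; GAAANNGAAA, the core of the interferon-stimulated response element; TTCNNNNGAA, bound by STAT6; and TGANTCA, bound by AP-1.

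Gpr18: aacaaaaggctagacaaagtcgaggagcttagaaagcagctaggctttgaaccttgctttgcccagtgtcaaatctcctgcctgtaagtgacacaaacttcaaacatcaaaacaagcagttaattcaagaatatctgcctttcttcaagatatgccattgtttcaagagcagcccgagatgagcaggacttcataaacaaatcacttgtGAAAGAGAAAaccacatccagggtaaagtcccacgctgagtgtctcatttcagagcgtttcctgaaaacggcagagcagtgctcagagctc

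Gpr183: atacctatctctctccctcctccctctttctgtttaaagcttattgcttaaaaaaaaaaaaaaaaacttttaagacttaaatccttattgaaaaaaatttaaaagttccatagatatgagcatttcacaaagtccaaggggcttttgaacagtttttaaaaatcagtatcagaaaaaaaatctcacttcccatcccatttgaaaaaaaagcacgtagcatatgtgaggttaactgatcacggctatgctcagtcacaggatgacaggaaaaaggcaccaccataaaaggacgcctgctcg

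Gpr33: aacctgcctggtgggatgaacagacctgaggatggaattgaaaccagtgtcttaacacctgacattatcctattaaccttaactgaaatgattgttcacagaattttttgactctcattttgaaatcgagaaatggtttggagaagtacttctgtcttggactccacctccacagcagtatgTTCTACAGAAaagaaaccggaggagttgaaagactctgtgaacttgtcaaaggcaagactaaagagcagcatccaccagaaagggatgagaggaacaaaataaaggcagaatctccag

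Gpr132: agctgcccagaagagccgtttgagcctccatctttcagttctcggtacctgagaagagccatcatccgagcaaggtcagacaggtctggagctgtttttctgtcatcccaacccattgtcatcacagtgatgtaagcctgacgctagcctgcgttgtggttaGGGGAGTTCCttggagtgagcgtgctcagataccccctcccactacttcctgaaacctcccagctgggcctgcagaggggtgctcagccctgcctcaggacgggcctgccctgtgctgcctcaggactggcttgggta

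Gpr85: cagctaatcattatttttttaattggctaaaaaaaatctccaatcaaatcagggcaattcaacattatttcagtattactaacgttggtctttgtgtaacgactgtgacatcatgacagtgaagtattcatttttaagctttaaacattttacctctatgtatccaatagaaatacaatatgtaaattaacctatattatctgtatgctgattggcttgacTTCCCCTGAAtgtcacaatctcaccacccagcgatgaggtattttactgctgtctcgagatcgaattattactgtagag

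Gpr84: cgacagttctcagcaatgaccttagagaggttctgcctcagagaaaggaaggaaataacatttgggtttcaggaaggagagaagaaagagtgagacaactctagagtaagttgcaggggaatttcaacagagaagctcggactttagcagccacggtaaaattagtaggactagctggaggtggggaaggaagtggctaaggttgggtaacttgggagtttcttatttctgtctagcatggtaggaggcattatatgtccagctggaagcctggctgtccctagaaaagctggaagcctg

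Counting the start as 0, Gpr18 held the interferon element at -41 to -32, Gpr33 held the STAT6 motif at -68 to -59, Gpr132 held a kappaB match at -88 to -79, and Gpr85 held the STAT6 motif at -29 to -20. None of these matches overlapped another. The windows of Gpr183 and Gpr84 held none of the 4, which says only that these letters are not in these 300 bases. Among 32851 windows of the same length, 8.5% held the kappaB consensus, 3.4% the interferon element, 7.0% the STAT6 motif and 7.8% the AP-1 motif. Among 17 of the 21 receptors with a change of at least 2-fold, whose 20 windows could be searched, the kappaB consensus was found in Gpr132 and Gpr176, the interferon element in Gpr18, the STAT6 motif in Gpr33 and Gpr85, and the AP-1 motif in Gpr146 and Gpr35. A match is a description of the sequence and was not tested for binding.

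Against untreated cells, IFN gamma/LPS changed the most receptors. Of the 69, 18 were higher and 15 lower, which is 26.1% and 21.7%, against 23.6% and 28.4% of all named genes. The median log2 difference was 0.14 over the receptors and 0.10 over all genes, and 6 receptors rose and 7 fell by at least 2-fold. With IL4/IL13, 9 were higher and 7 lower (13% and 10.1%), against 7.83% and 12.3% of all genes, and the receptor that rose at least 2-fold was Gpr155. The count of 9 was 5 without untreated array 1, 5 without IL4/IL13 array 2 and 14 when only the 4 arrays compared were fitted. With LPS/IL4/IL13, 10 were higher and 16 lower (14.5% and 23.2%), against 20.3% and 25.4% of all genes, and the count of 10 was 6 without untreated array 1 or 2. The share of receptors was above that of all genes for those higher with IFN gamma/LPS and with IL4/IL13, and below it otherwise. These differences were not tested, and the counts higher with IL4/IL13 and with LPS/IL4/IL13 changed with single arrays. The 3 comparisons share the untreated arrays.

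**Figure D4:**
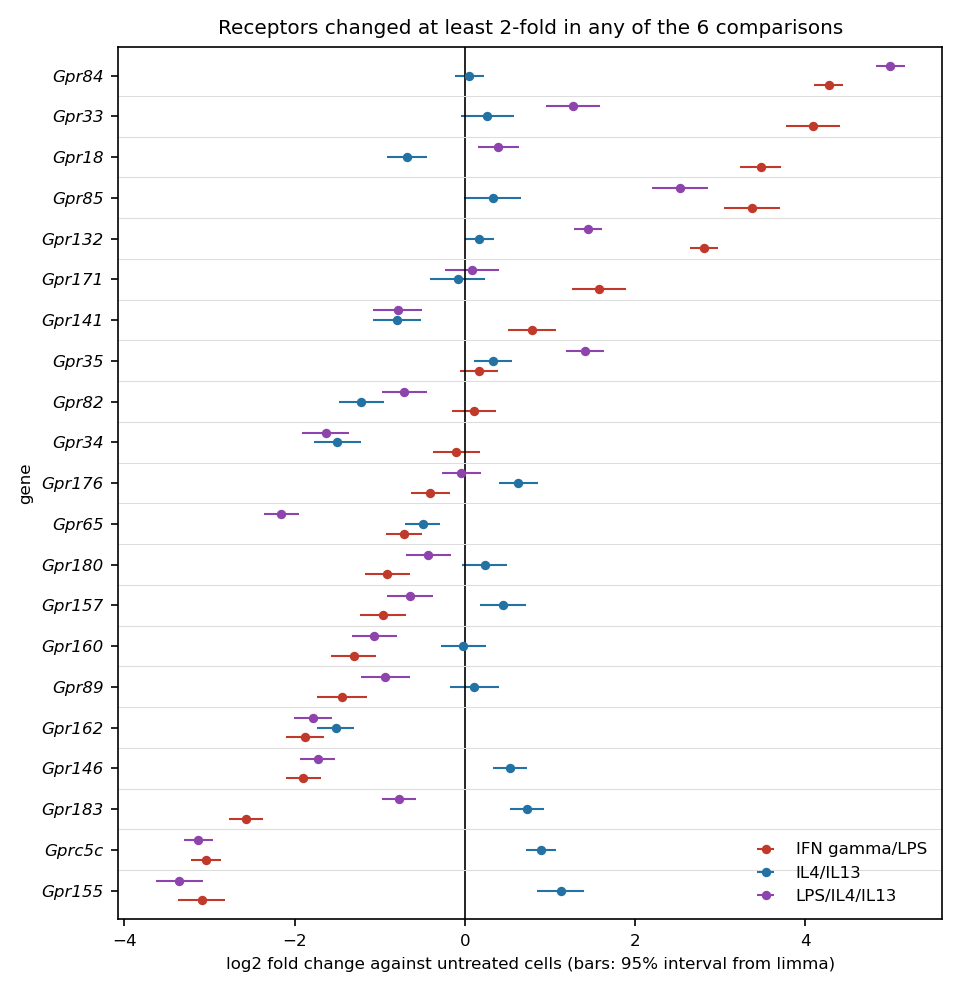
Log2 difference from untreated cells with its 95% interval for the receptors with a change of at least 2-fold in any comparison, by treatment; the vertical line marks no difference. Gpr84, Gpr33, Gpr18, Gpr85 and Gpr132 lie to the right with IFN gamma/LPS, and Gpr155, Gprc5c and Gpr183 to the left.

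Between the treated groups, LPS/IL4/IL13 against IFN gamma/LPS gave 6 receptors higher and 11 lower (8.70% and 15.9%), against 12.1% and 7.62% of all genes. Of those lower, 7 differed by at least 2-fold: Gpr132, Gpr141, Gpr171, Gpr18, Gpr33, Gpr34 and Gpr65. The 2 higher by at least 2-fold were Gpr183 and Gpr35, and the count of 6 was 3 without LPS/IL4/IL13 array 1 and 3 when only the 4 arrays compared were fitted. LPS/IL4/IL13 against IL4/IL13 gave 8 higher and 13 lower (11.6% and 18.8%), against 14.1% and 22.6%. IFN gamma/LPS against IL4/IL13 gave 12 higher and 12 lower (17.4% each), against 15.5% and 26.1%.

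Read as patterns over the 4 groups, 6 receptors (8.70%) were called higher in both groups with LPS than in both without, namely Gpr132, Gpr18, Gpr33, Gpr4, Gpr84 and Gpr85, against 8.55% of all genes. The reverse held for 10 (14.5%), Gpr107, Gpr137, Gpr146, Gpr155, Gpr157, Gpr160, Gpr180, Gpr183, Gpr89 and Gprc5c, against 17.2%. Both shares were near the background. No receptor was higher in both groups with IL4/IL13 than in both without (0 of 69, against 0.808% of all genes), and 3 (4.35%) were lower, Gpr141, Gpr34 and Gpr82, against 0.722%. IFN gamma/LPS was highest for 7 (10.1%, against 4.97% of all genes), Gpr108, Gpr132, Gpr141, Gpr171, Gpr18, Gpr33 and Gpr85, and lowest for 4 (5.8%, against 7.84%), Gpr176, Gpr180, Gpr183 and Gpr89. IL4/IL13 was highest for 6 (8.70%, against 2.73%), Gpr146, Gpr155, Gpr157, Gpr176, Gpr183 and Gprc5c, and lowest for 2 (2.90%, against 3.28%), Gpr18 and Gpr82. LPS/IL4/IL13 was highest for Gpr35 and Gpr84 (2.90%, against 2.95%) and lowest for Gpr19 and Gpr65 (2.90%, against 1.8%). These counts are few, and their difference from the background was not tested.

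Genes of the proteins that receptors of this kind signal through were read from the same fit, in which, over all named genes, 23.6% rose and 28.4% fell with IFN gamma/LPS, 7.83% rose and 12.3% fell with IL4/IL13, and 20.3% rose and 25.4% fell with LPS/IL4/IL13. Of 32 measured G protein subunits, 11 rose and 8 fell with IFN gamma/LPS, 4 rose and 4 fell with IL4/IL13, and 10 rose and 7 fell with LPS/IL4/IL13, the median log2 difference with IFN gamma/LPS being 0.09 against 0.10 over all genes. Gnb4, a beta subunit, rose by 3.62 ± 0.09 (SE) with IFN gamma/LPS, by 0.59 with IL4/IL13 and by 3.15 with LPS/IL4/IL13 on the log2 scale. Gna12, an alpha subunit, fell by 3.59 ± 0.09 with IFN gamma/LPS, fell by 0.72 with IL4/IL13 and fell by 3.14 with LPS/IL4/IL13, whereas the related Gna13 rose by 1.03 with IFN gamma/LPS and by 0.69 with LPS/IL4/IL13. Gna15, an alpha subunit of blood cells that acts on phospholipase C, rose by 0.96 with IL4/IL13 and by 1.01 with LPS/IL4/IL13, its difference with IFN gamma/LPS being -0.06 and not called.

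Of 9 measured kinases and arrestins, 2 rose and 5 fell with IFN gamma/LPS, 0 rose and 4 fell with IL4/IL13, and 0 rose and 6 fell with LPS/IL4/IL13, against the shares of all genes just given: 23.6% and 28.4%, 7.83% and 12.3%, and 20.3% and 25.4%. Their median log2 differences were -0.67, -0.32 and -0.80, against 0.10, 0.07 and 0.09 over all genes. Arrb1, an arrestin that binds phosphorylated receptors, fell by 4.34 ± 0.11 (SE), 1.03 and 4.55 in that order, and Arrb2, its relative, by 1.67 ± 0.07, 0.84 and 1.59, all called. Grk5 fell by 1.25, 1.73 and 2.03 and Grk6 by 1.49, 0.51 and 1.31, both being kinases of active receptors. Grk3 went up with IFN gamma/LPS, by 0.68, and down with LPS/IL4/IL13, by 0.42. The genes in the plot of signalling partners were chosen after their values were seen.

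**Figure D5:**
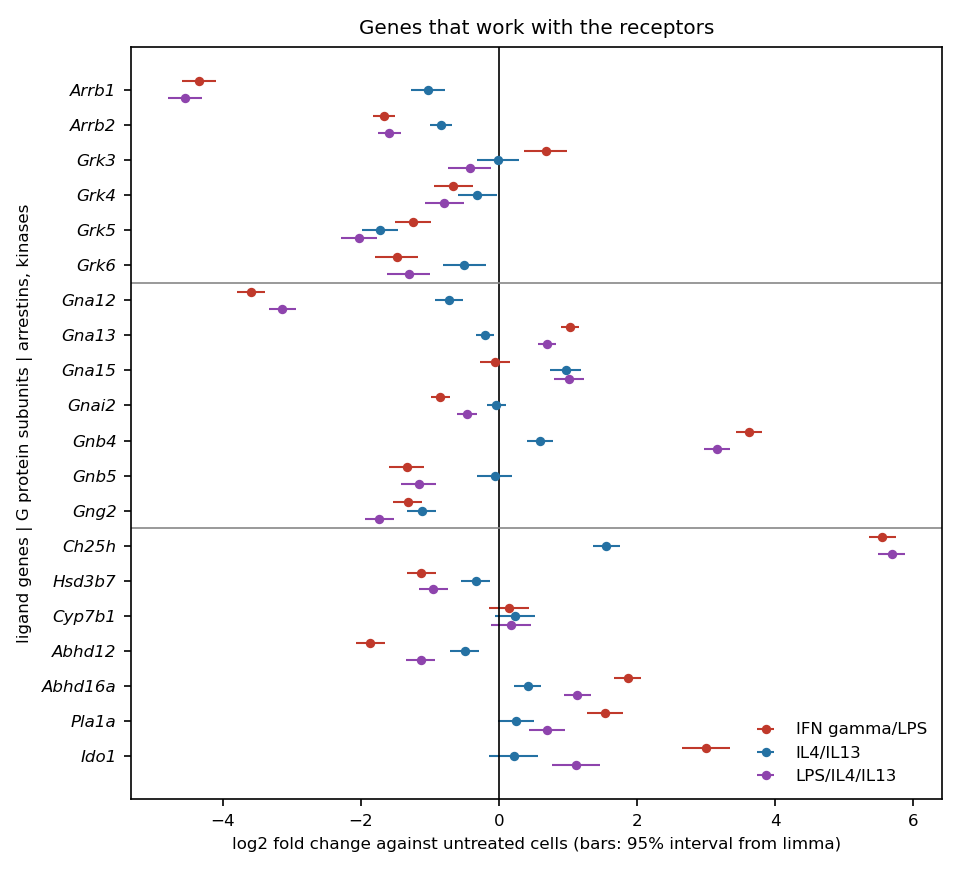
Log2 difference from untreated cells with its 95% interval for G protein subunits, kinases, arrestins and ligand enzymes in the 3 treated groups. Ch25h and Gnb4 lie above 0 and Arrb1 and Gna12 below 0 in both groups with LPS.

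Of 13 measured genes for the making or breakdown of ligands of these receptors, 5 rose and 5 fell with IFN gamma/LPS, 2 rose and 2 fell with IL4/IL13, and 5 rose and 5 fell with LPS/IL4/IL13. The shares of all genes were again 23.6% and 28.4%, 7.83% and 12.3%, and 20.3% and 25.4%, and the median log2 differences of the list were 0.12, 0.21 and 0.13 against 0.10, 0.07 and 0.09 over all genes. Apart from the oxysterol, lysophosphatidylserine and kynurenine genes given above, Kyat1, which makes kynurenic acid, fell by 0.77 with IFN gamma/LPS and by 0.70 with LPS/IL4/IL13 on the log2 scale. Kyat3, its relative, rose by 0.35 with IFN gamma/LPS and by 0.33 with LPS/IL4/IL13, and Got2 fell by 1.04 and 0.97.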

How the data were processed

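Total RNA of 8 bone marrow-derived macrophage samples was measured on 1 whole-transcript array each, and groups were taken from the sample titles. The deposited values are on a log2 scale; per the labels they are a MAS5 signal, and the background correction, the normalization and the software are, in the sources used here, not given. The number of arrays limits the precision. Of 35556 probe sets, 21789 have 1 symbol, 1621 several and 12146 none in the platform annotation; the probe set with the highest mean was kept per gene, giving 19938 genes. All 69 receptors matched RefSeq by Entrez ID.

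Values were tested as deposited with limma 3.58.1 in R 4.3.3 (linear model over 8 arrays, eBayes with trend, 4 residual and 7.552 prior degrees of freedom), with Benjamini-Hochberg adjustment over all genes. Receptors were named with array values when called with at least 2-fold in any comparison; others were given by ranges, and any singled out were chosen after their values were seen. The script was tested on simulated data. Alternatives were quantile normalization, median centring, eBayes without trend or robust, the mean over a gene's probe sets, a dim filter, a fit of the 4 arrays compared, a replicate block, a 2-fold threshold and leaving out each array. The receptors and gene lists were chosen with earlier results of these data known.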

Additional observations from a re-analysis of the deposited data

How the results depend on the processing

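All 68 called changes of at least 2-fold in the 20 receptors above the dim limit kept their direction under every alternative that could test them. The dim filter left 61 of the 68 to be tested. Their call was also kept in each alternative that used both arrays of a group. The 2-fold threshold was no test of these changes, since they were chosen by it. Among the receptors, the mean over probe sets altered the values of Gprc5c only. The count of called receptors was within 1.5 times of its value under each alternative run except a threshold of 2-fold, which left 13 of 33 for IFN gamma/LPS against untreated, 4 of 16 for IL4/IL13 against untreated, 12 of 26 for LPS/IL4/IL13 against untreated and 9 of 17 for LPS/IL4/IL13 against IFN gamma/LPS. Leaving out 1 array at a time gave, in that order, 26 to 32, 11 to 14, 21 to 27 and 13 to 20, then 19 to 22 for LPS/IL4/IL13 against IL4/IL13 and 22 to 23 for IFN gamma/LPS against IL4/IL13. With the replicate number as a block the 6 counts were 36, 15, 27, 17, 22 and 24; the deviations of same-numbered arrays correlated at -0.358 to 0.217 between groups, so the numbers were not taken as pairs. Receptors lower in both groups with IL4/IL13 went from 3 to 1 with a filter at 5.910, the 40th percentile, which tests 36 of the 69 receptors. At the 2-fold threshold that count was also 1, receptors highest with IL4/IL13 went from 6 to 1, those lower in both groups with LPS from 10 to 4, those highest with IFN gamma/LPS from 7 to 4 and those lowest with it from 4 to 1. The dim count of 30 was 22 at a limit of 5.5 and 38 at 6.5. Low signal limits what can be said of the dim receptors.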

Other observations

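Some symbols that begin with Gpr fall outside the naming rule, and a few of them moved. Gpr31b, a mouse homologue of a receptor for 12-hydroxyeicosatetraenoic acid, rose by 3.95 ± 0.10 (SE) with IFN gamma/LPS and by 3.31 ± 0.10 with LPS/IL4/IL13 on the log2 scale (adjusted p = 1.51e-11 and 7.67e-11 by limma), and fell by 0.36 with IL4/IL13. Its level was 11.54 and 11.55 with IFN gamma/LPS and 7.16 and 7.31 with IL4/IL13, without overlap. Gpr137b, a protein of the lysosomal membrane, fell by 2.48 ± 0.12 (SE) with IFN gamma/LPS, by 0.89 with IL4/IL13 and by 1.58 with LPS/IL4/IL13. The probe set of Gpr137b-ps fell by 2.56, 1.00 and 1.60 in the same order; as it carries the name of a pseudogene of Gpr137b, the 2 probe sets may share transcripts, which was not tested. Gpr137c, Gpr141b, Gpr37l1 and Gprc6a were called in no comparison. These genes were picked after their values were seen.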
